A study of Mus musculus with 94 samples.

Results

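The nuclear-encoded subunits of the mitochondrial oxidative phosphorylation system were described in single mouse haematopoietic stem cells. The members were chosen by symbol: Ndufa, Ndufb, Ndufc, Ndufs and Ndufv genes for complex I, Sdha to Sdhd for complex II, Uqcr genes for complex III, Cox4 to Cox8 genes for complex IV and Atp5 genes for complex V. This took 79 of the 13244 genes in the table, with 37 in complex I, 4 in complex II, 8 in complex III, 14 in complex IV and 16 in complex V. Assembly factors were not members, and Cox7a2l and Atp5sl, whose symbols start like those of subunits, were also left out. Cyc1, the cytochrome c1 of complex III, was not taken by these symbols. It is described with other genes of the pathway, so the complex III values do not include it. Ndufa4 is kept in complex I by its symbol, although it is now usually assigned to complex IV.

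The study compared 46 cells labelled Ski-KO with 48 cells labelled Ski-WT, where Ski encodes a transcriptional co-repressor of Smad signalling. All cells were C57BL/6 haematopoietic stem cells of fetal liver origin, transplanted into recipients and recovered from bone marrow 6 months later. The sort kept Cd45.2+ cells that were c-Kit+, Sca-1+ and Cd150+ but Cd48- and without lineage markers, and a Fluidigm C1 device captured them, so each library is a single cell. The Ski-KO cells carried the label prefixes 051716 (27 cells) and 051816 (19 cells), and every Ski-WT cell carried 061016. The labels do not say what a prefix stands for, how Ski was removed, or how many animals were used. Genotype cannot be told apart from prefix, because each prefix came with a single genotype. Each genotype was counted as 1 sample, no test was made, and the SD over cells describes cells, not replicates.

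Oxidative phosphorylation passes electrons from NADH through complex I, or from succinate through complex II, to ubiquinone, then through complex III and cytochrome c to complex IV, where oxygen is reduced. Complexes I, III and IV pump protons out of the mitochondrial matrix, and complex V, the ATP synthase, lets them flow back to make ATP. Resting haematopoietic stem cells are known to rely much on glycolysis, and oxidative phosphorylation rises as they leave quiescence. Apart from complex II, each complex also holds subunits encoded by mitochondrial DNA, and 0 of the 13 mitochondrially encoded genes were in the table, so only nuclear genes are described.

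Values are transcript abundances scaled per length and to a fixed total per cell (TPM), or log2(TPM + 1). The table keeps no read depth. The number of genes above 0 per cell had a median of 3248 in prefix 051716, 3679 in prefix 051816 and 3670.5 in Ski-WT. Ski itself was above 0 in 9 of 46 Ski-KO cells and 10 of 48 Ski-WT cells, with a log2 difference of -0.14, so its mRNA did not separate the labels. Of the sort genes, Kit reached 5 TPM in 23 of 27, 15 of 19 and 41 of 48 cells of prefixes 051716, 051816 and 061016, and Ly6a (Sca-1) in 20, 7 and 29. Slamf1 (Cd150) reached it in 2, 2 and 7 cells, and Ptprc (Cd45) in 16, 11 and 34. Cd48, used for exclusion, reached it in 0 of 94, which allows a share of up to 3.19%. The granulocyte and monocyte genes Elane, Mpo, Ctsg, Ly6c2 and Csf1r were listed at 0 in all cells, while Lyz2 reached 5 TPM in 17, 11 and 28 cells. The summed level of 5 megakaryocyte genes had medians of 2.14, 0.90 and 14.9 TPM in the 3 prefixes, with single cells up to 3463, 6022 and 8317 TPM. That of 6 erythroid genes had a median of 0 TPM in each, with single cells up to 2.94, 164 and 664 TPM. Of the lymphoid genes, Nkg7 reached 5 TPM in 12, 6 and 19 cells and Cd79b in 4, 5 and 11. Cd79a, Cd4 and Cd8a reached it in 1, 0 and 1 of 94 cells. The part of cells with such genes in the differences described here was not tested.

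Subunit genes were among the higher expressed genes of these cells. The median member had a mean of 286.1 TPM over the 94 cells, compared with 14.3 TPM for the median gene of the table, and lay at the 95.9th percentile of all genes. Complex V had the highest median member level, 537.0 TPM (range over members 29.2 to 902), followed by complex III with 354.6 TPM (78.9 to 933). Complex IV followed with 251.3 TPM (0 to 1420.5), complex I with 245.7 TPM (52.3 to 830) and complex II with 187.5 TPM (116 to 366). The ranges of all 5 complexes overlapped, and neighbours in this order did not differ beyond the spread of their members.

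**Figure D1:**
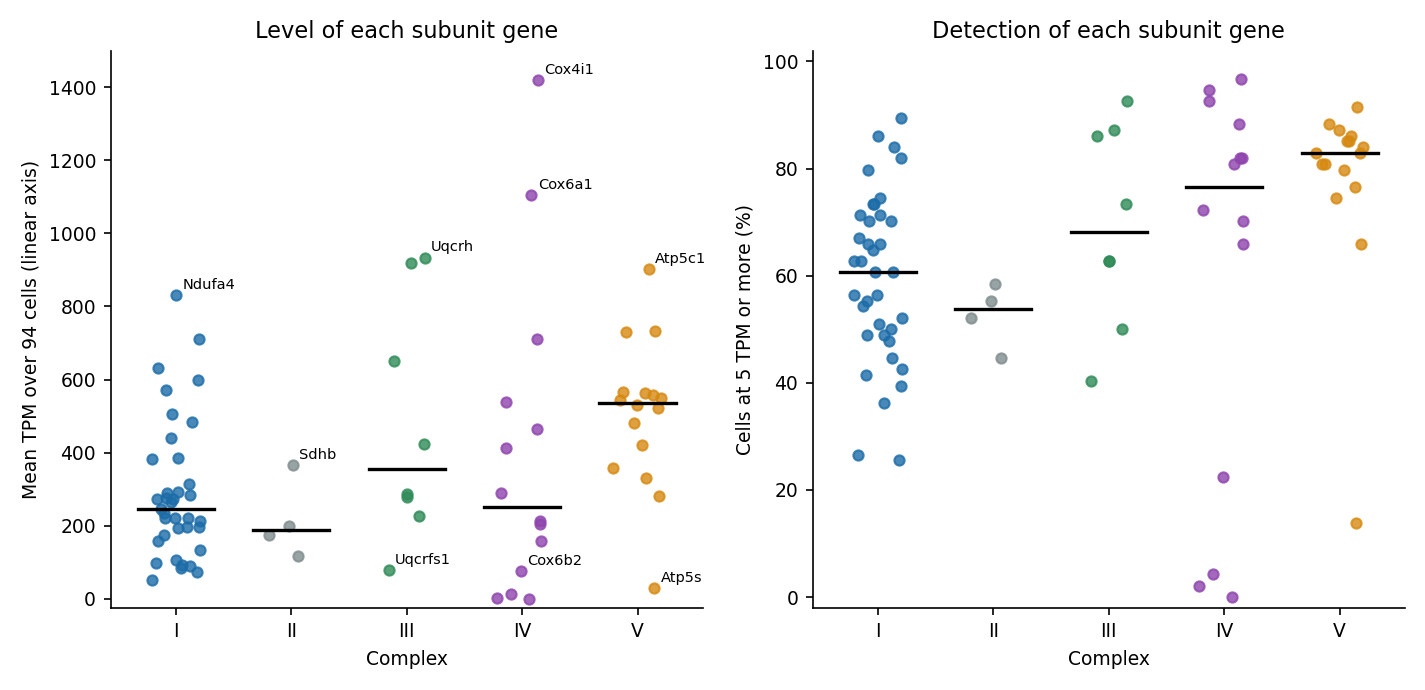
Each point is a subunit gene, grouped by complex, with its mean TPM over 94 cells on a linear axis at left and the percent of cells at 5 TPM or more at right; bars are medians over the members. Complex V members sit high in both panels apart from Atp5s, and 4 complex IV genes lie at the bottom of the detection panel.

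Detection followed nearly the same order as level. A level of 5 TPM was reached in a median of 83.0% of cells by complex V members, 76.6% by complex IV, 68.1% by complex III, 60.6% by complex I and 53.7% by complex II, against 9.57% for all genes. In all, 62 of the 79 members reached 5 TPM in at least 50% of cells: 27 of 37 in complex I, 3 of 4 in complex II, 7 of 8 in complex III, 10 of 14 in complex IV and 15 of 16 in complex V. Across the 79 genes, mean TPM and detection had a Spearman correlation of 0.88, computed from the same cells. Genes with a longer coding sequence were detected in somewhat fewer cells (Spearman -0.37 across 79 genes, lengths from 156 bases for Atp5e to 2181 for Ndufs1), while coding length and mean TPM gave -0.18. Coding length and detection gave -0.44 within complex I and 0.015 within complex V, so the pooled value did not hold in each complex. Genes are not independent replicates in these correlations.

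In complex I, the NADH dehydrogenase, the highest members were Ndufa4, with 830 TPM and 81 of 94 cells at 5 TPM, and the accessory subunit Ndufa3, with 710 TPM and 84 cells. The lowest were the accessory subunit Ndufa11 (52.3 TPM, 53 cells) and Ndufs1, the largest iron-sulphur subunit (73.3 TPM, 24 cells). The 7 nuclear core subunits that carry the flavin and the iron-sulphur clusters or shape the quinone site had a median level of 234 TPM, near the 259 TPM of the 30 accessory subunits. Their detection was lower, with a median of 42.6% of cells at 5 TPM compared with 61.7%. The core genes therefore had a like average level that was carried by fewer cells.

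Complex II, succinate dehydrogenase, links the tricarboxylic acid cycle to the chain and was the least detected complex. Sdhb, the iron-sulphur subunit, was highest with 366 TPM and 55 of 94 cells at 5 TPM. Sdha, the flavoprotein, had 200.1 TPM and 52 cells. The membrane anchors Sdhd and Sdhc had 175 TPM in 49 cells and 116 TPM in 42 cells. All 4 genes were above 0 together in 5 of 27, 4 of 19 and 13 of 48 cells of prefixes 051716, 051816 and 061016, and none of them was above 0 in 2, 0 and 3 cells.

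Complex III, the cytochrome bc1 complex, was led by Uqcrh, the hinge protein, with 933 TPM and 87 of 94 cells at 5 TPM, and by Uqcrb, with 918 TPM and 82 cells. The lowest of the 8 members was Uqcrfs1, the Rieske iron-sulphur protein, with 78.9 TPM and 38 cells. Uqcrc2, a core protein, was next lowest with 228 TPM. The electron-carrying Rieske subunit was thus listed far below the small supernumerary subunits of the same complex.

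Complex IV, cytochrome c oxidase, held the highest and the least detected of all members. Cox4i1, a subunit found in most tissues, had 1420.5 TPM and reached 5 TPM in 91 of 94 cells, and Cox6a1 had 1106 TPM and reached it in 76 cells. Cox7c had a lower mean, 413 TPM, but reached 5 TPM in 89 cells. Cox4i1 and Cox7c had SDs over cells of 2.20 and 2.21 on the log2 scale, compared with 4.31 for the complex I core gene Ndufs7. Within this family the widely expressed and the tissue-restricted isoforms were separated by mean level over all cells.

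Cox6a2 and Cox7a1, the heart and muscle isoforms, Cox4i2, an isoform known from lung, and Cox6b2, an isoform known from testis, were the members outside the common set. Cox6a2 was listed at 0 in all 94 cells, and Cox4i2 reached 5 TPM in 2 Ski-WT cells, with a maximum of 31.9 TPM. Cox7a1 reached 5 TPM in 4 cells, 3 of which also held Cox7a2 at that level. It exceeded Cox7a2 in 2 cells. Among cells at 5 TPM, the median was 279 TPM for Cox7a1 and 201 TPM for Cox7a2. Cox6a2, Cox4i2 and Cox7a1 were the only members above 0 in under 25% of cells in both genotypes, and the other 76 members passed this filter. Cox6b2 differed from them, with 21 cells at 5 TPM (6, 2 and 13 in prefixes 051716, 051816 and 061016) and a mean of 76.2 TPM. It was seen together with Cox6b1 in 19 of those cells and exceeded Cox6b1 in 6 cells, and it made up 9.67% of the TPM of the pair. Its highest value, 2077 TPM, was in a cell of prefix 051716. The widely expressed counterparts Cox6b1, Cox8a, Cox7b and Cox7a2 had 712, 465, 214 and 204 TPM and reached 5 TPM in 83, 77, 77 and 66 cells. Cox7b2, Cox8b, Cox8c and Ndufa4l2 were not in the table under these symbols, so nothing is said of them.

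Complex V makes the ATP, and 15 of its 16 members were widely detected. Atp5c1, the gamma subunit that turns inside the catalytic head, was highest with 902 TPM and 81 of 94 cells at 5 TPM. Atp5l, the membrane subunit g, had 732 TPM and 86 cells. The catalytic beta subunit gene Atp5b had 563 TPM and 80 cells. The lowest were Atp5d, the delta subunit of the central stalk, with 282 TPM, and Atp5s, a coupling factor gene, with 29.2 TPM and 13 cells. Without Atp5s the members of this complex spanned 282 to 902 TPM.

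The rotating c-ring of complex V is made from a protein encoded by 3 genes, Atp5g1, Atp5g2 and Atp5g3, whose products differ in the import peptide and share the mature part. The last 225 coding bases before the stop codon are shown because reads from them have to tell the copies apart. They were read from GENCODE M21 transcripts (GRCm38), on the coding strand of genes on chromosomes 11, 15 and 2, and capitals mark positions where the 3 sequences are not all the same.
Atp5g1: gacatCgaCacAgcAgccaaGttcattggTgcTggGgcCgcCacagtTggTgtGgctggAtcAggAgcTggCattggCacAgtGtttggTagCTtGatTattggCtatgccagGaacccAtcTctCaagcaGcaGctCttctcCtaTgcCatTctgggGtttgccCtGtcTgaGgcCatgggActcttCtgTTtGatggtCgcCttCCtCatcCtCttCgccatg
Atp5g2: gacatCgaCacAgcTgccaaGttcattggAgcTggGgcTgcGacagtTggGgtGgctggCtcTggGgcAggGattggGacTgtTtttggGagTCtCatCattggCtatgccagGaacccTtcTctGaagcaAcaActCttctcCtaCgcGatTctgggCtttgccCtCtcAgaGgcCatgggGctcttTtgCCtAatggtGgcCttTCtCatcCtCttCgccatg
Atp5g3: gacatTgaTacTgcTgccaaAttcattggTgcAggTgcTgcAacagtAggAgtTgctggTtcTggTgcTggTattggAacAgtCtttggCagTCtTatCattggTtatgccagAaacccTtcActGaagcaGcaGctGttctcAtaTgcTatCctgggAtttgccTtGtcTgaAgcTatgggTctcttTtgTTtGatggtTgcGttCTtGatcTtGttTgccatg

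All 75 codons gave the same residue in the 3 genes, while 57 of the 225 bases differed and 23 codons were identical. Atp5g1 and Atp5g2 were 84.9% identical, with a longest shared run of 20 bases, compared with 80% and 11 bases for Atp5g1 and Atp5g3 and 78.7% and 8 bases for Atp5g2 and Atp5g3. The submitters' notes name RSEM, which shares reads among similar transcripts, and pseudogene copies were not examined, so the split between the copies is uncertain.

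Atp5g2 had the highest mean, 730 TPM with 83 of 94 cells at 5 TPM, followed by Atp5g1 with 543 TPM and 76 cells and Atp5g3 with 481 TPM and 70 cells. Over all cells they made up 41.6%, 30.9% and 27.4% of the c-ring TPM. All 3 genes reached 5 TPM together in 54 cells, exactly 2 did in 27 cells, exactly 1 did in 13 cells, and no cell lacked all 3. Atp5g2 led in 37 cells, Atp5g1 in 33 and Atp5g3 in 24, so the leading copy varied from cell to cell. The share of Atp5g2 was 48.6% in prefix 051716, 37.9% in prefix 051816 and 38.9% in Ski-WT, and that of Atp5g3 was 21.96%, 24.2% and 32.4%. The summed c-ring level ranged from 52.0 to 5039 TPM (median 1653) in prefix 051716, from 9.22 to 4635 TPM (median 1648) in prefix 051816 and from 204 to 3640 TPM (median 1471) in Ski-WT, and the 3 ranges overlapped over most of their length.

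The per-cell mean of log2(TPM + 1) over all listed members of a complex was then compared by prefix. For complex I the lowest, median and highest cells had 2.56, 4.28 and 6.91 in prefix 051716, 2.57, 5.19 and 6.73 in prefix 051816, and 2.57, 4.98 and 7.56 in Ski-WT. The means were 4.35 ± 0.97 (SD over 27 cells), 5.04 ± 1.30 (19 cells) and 5.03 ± 1.26 (48 cells). Prefix 051716 was thus 0.67 lower than Ski-WT, prefix 051816 differed from it by 0.02, and all Ski-KO cells together by -0.39. Cells of the 3 prefixes overlapped over most of the range.

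Complex III repeated this order. Its per-cell mean had a lowest, median and highest value of 0, 5.57 and 8.51 in prefix 051716, 2.34, 6.11 and 8.97 in prefix 051816, and 2.75, 6.11 and 8.98 in Ski-WT. The means were 5.31 ± 1.76, 6.32 ± 1.80 and 6.08 ± 1.63 (SD over cells), so prefix 051716 differed from Ski-WT by -0.77 and prefix 051816 by 0.23. The Ski-KO prefixes therefore lay on opposite sides of Ski-WT for complex III.

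Complexes IV and V differed less between prefixes. The complex IV means were 5.08 ± 0.92, 5.15 ± 1.09 and 5.17 ± 1.21 (SD over cells) in prefixes 051716, 051816 and 061016, differences from Ski-WT of -0.09 and -0.02. The complex V means were 6.59 ± 1.15, 6.53 ± 1.34 and 6.71 ± 1.37, differences of -0.13 and -0.18. The complex II mean, over 4 genes, had the widest spread, with 3.89 ± 2.51, 4.42 ± 1.97 and 4.18 ± 2.16 and differences of -0.30 and 0.24. Each of these differences was smaller than the SD over cells.

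**Figure D2:**
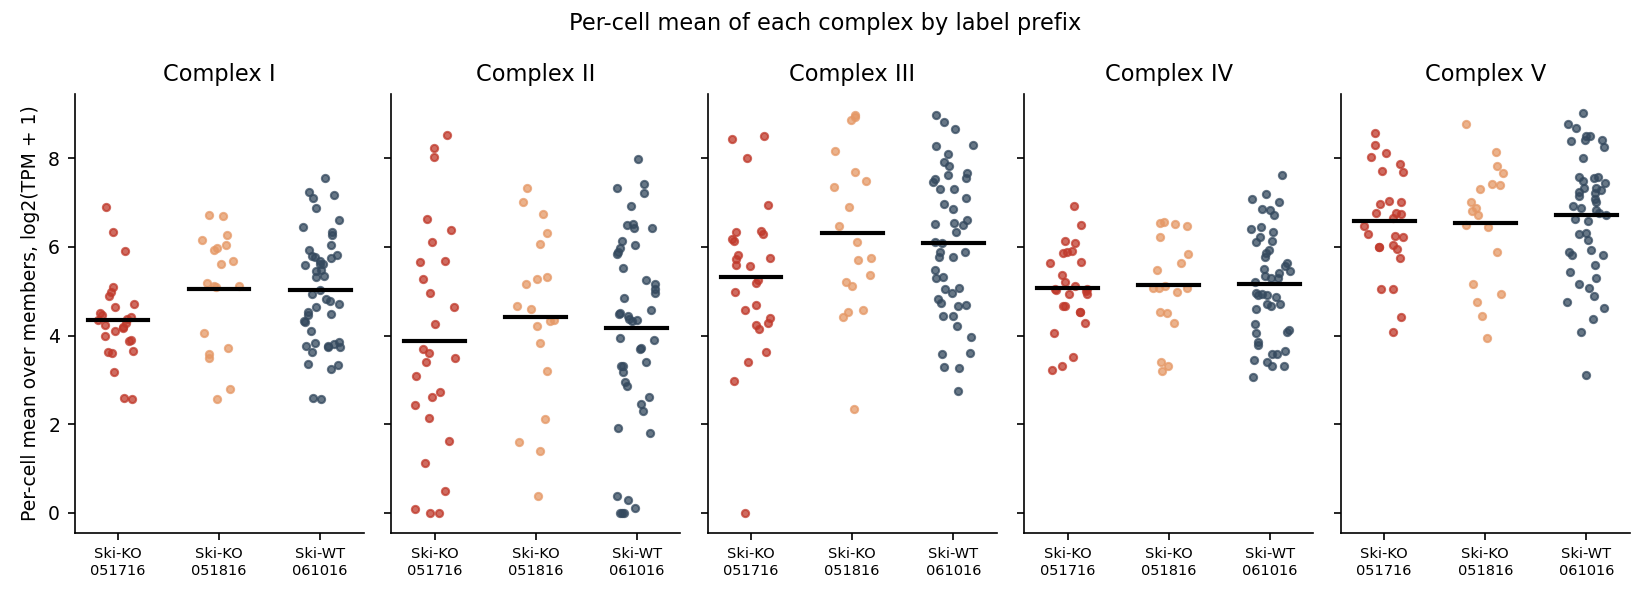
Each point is a cell, its height is the mean log2(TPM + 1) over all members of the complex, and bars are means over the cells of a label prefix. Prefix 051716 has the lowest mean in complexes I to IV, and the points of all prefixes overlap in each panel.

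On the linear scale the direction for Ski-KO as a whole turned: the log2 ratio of the mean summed TPM, Ski-KO to Ski-WT, was 0.11 for complex I, 0.37 for complex II, 0.05 for complex III, 0.32 for complex IV and 0.22 for complex V, while the difference of per-cell log2 means was -0.39, -0.08, -0.36, -0.06 and -0.15. The summed members made up a median of 3.01% of a cell's TPM in prefix 051716 (1.84 to 5.07%), 2.96% in prefix 051816 (1.86 to 4.45%) and 2.69% in Ski-WT (1.51 to 4.86%). A median of 51 of the 79 members was above 0 per cell in prefix 051716 (30 to 67), 58 in prefix 051816 (39 to 69) and 57 in Ski-WT (38 to 76). Members that were above 0 had a mean log2 level of 7.65, 7.42 and 7.54 in the 3 prefixes. Prefix 051716 thus had the fewest members above 0 per cell, while their level was 7.22 against 7.30 in Ski-WT for complex I and 8.02 against 7.90 for complex III. By complex, the median number above 0 in prefixes 051716, 051816 and 061016 was 22, 27 and 25 of 37 in complex I, 3, 3 and 3 of 4 in complex II, 5, 7 and 6 of 8 in complex III, 9, 9 and 9 of 14 in complex IV, and 13, 14 and 14 of 16 in complex V.

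The number of genes above 0 in a cell moved with these means. Across the 94 cells its Pearson correlation with the per-cell mean was 0.74 for complex I, 0.41 for complex II, 0.57 for complex III, 0.60 for complex IV and 0.64 for complex V, where both measures come from the same libraries. Prefix 051716 had the fewest genes above 0. With this number as a covariate, the difference of Ski-KO from Ski-WT in the per-cell mean went from -0.39 to -0.0084 for complex I and from -0.36 to 0.066 for complex III. For complexes II, IV and V the difference went from -0.08 to 0.32, from -0.06 to 0.22 and from -0.15 to 0.21. The cause of these shifts was not tested. Between complexes the correlation over cells was 0.65 for I and III, 0.69 for I and IV, 0.68 for I and V, 0.57 for III and IV, 0.53 for III and V and 0.60 for IV and V. After the number of genes above 0 was taken into account these values were 0.42, 0.47, 0.39, 0.35, 0.26 and 0.35. The complex II mean rests on 4 genes, against 37, 8, 14 and 16 in complexes I, III, IV and V. The part of this smaller number in its correlations was not tested. Complex II correlated with the others at 0.21 to 0.27, and at -0.07 to 0.02 after the number of genes above 0 was taken into account. These pooled values hid a spread over prefixes: complexes I and II correlated at 0.31 over the 27 cells of prefix 051716, -0.20 over the 19 of prefix 051816 and 0.40 over the 48 Ski-WT cells, and complex II with the number of genes above 0 at 0.34, -0.0029 and 0.58. For complex I and that number the values by prefix were 0.70, 0.78 and 0.73.

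**Figure D3:**
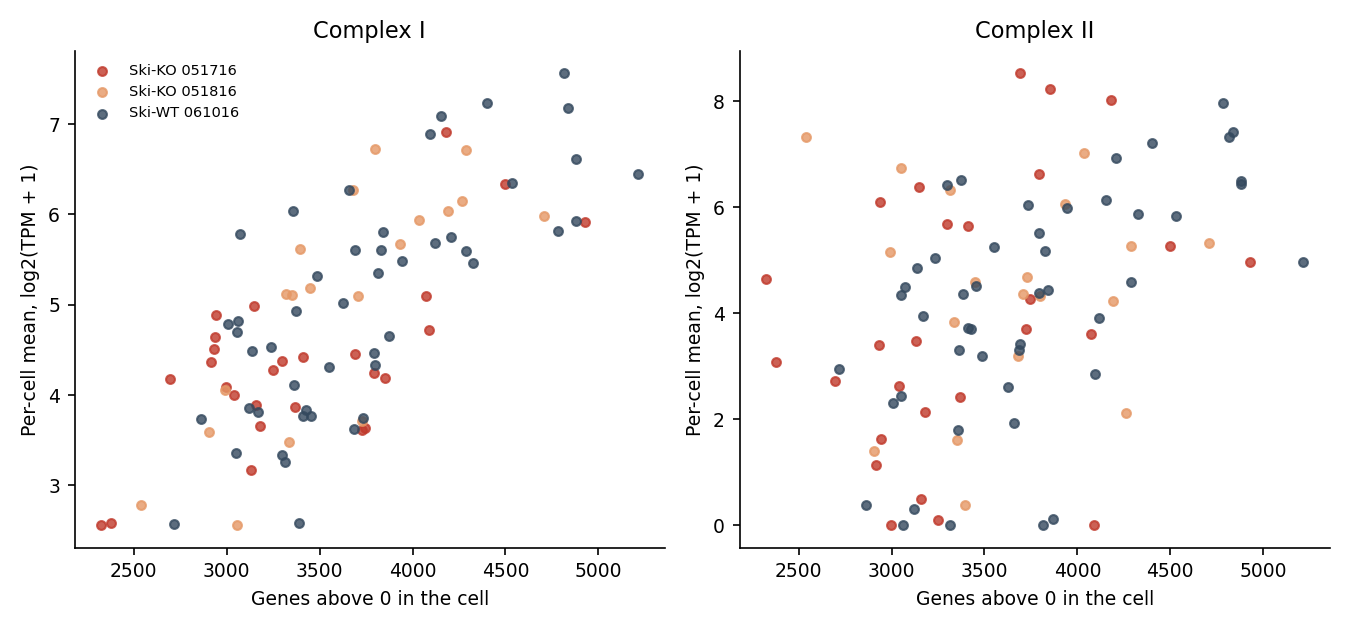
Each point is a cell, with the number of genes above 0 on the horizontal axis and the per-cell mean log2(TPM + 1) of complex I (left) or complex II (right) on the vertical axis; colours are label prefixes. Complex I, a mean over 37 genes, climbs with the number of genes (Pearson 0.74 over 94 cells). Complex II, a mean over 4 genes, is more scattered (0.41).

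For single genes, a member was called when its mean log2(TPM + 1) in each Ski-KO prefix lay at least 0.5 above, or in each at least 0.5 below, that of Ski-WT, a rule of size and not a test. Of the 76 members that passed the filter, 8 (10.5%) were called lower in Ski-KO, where the same rule called 17.9% of the 6240 genes that passed, and 3 (3.95%) were called higher, where it called 3.75% of all genes. The lower calls included Ndufs8, Ndufs7, Ndufb11, Ndufb7 and Ndufa5 in complex I, Sdha in complex II and Uqcrc1 in complex III. The higher calls were Ndufa6 in complex I, Uqcrfs1 in complex III and Atp5c1 in complex V, and complex IV had none in either direction. Both prefixes were below Ski-WT for 28 members (36.8%, against 44.3% of all genes) and above it for 16 (21.1%, against 18.5%), and they disagreed for the other 32.

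The median difference over the members was -0.24, near the -0.22 of all genes, and the balance of calls turned under other scalings. With quantile normalization 4 members were lower and 8 higher, after subtracting the median over genes, which moves each gene of a prefix upward by construction, 2 and 6, and with the number of genes above 0 as a covariate 3 and 7. As shares of features, 5.26% of members and 11.2% of all genes were lower with quantile normalization, and 10.5% and 8.61% were higher. With the median subtracted these shares were 2.63% and 11.01% lower and 7.89% and 8.22% higher, and with the covariate 3.95% and 13.1% lower and 9.21% and 7.003% higher. The higher share of the calls went from 27.3% to 66.7%, 75% and 70% under these 3 settings, and from 17.3% to 43.5%, 42.8% and 34.8% over all genes. By complex, the median difference was -0.34 in I, 0.08 in II, -0.19 in III, 0.27 in IV and -0.19 in V. Mean TPM on the linear scale was higher in Ski-KO for 51 of the 76 members, against 2954 of the 6240 genes that passed the filter. By complex these members were 21 of 37 in I, 2 of 4 in II, 6 of 8 in III, 9 of 11 in IV and 13 of 16 in V. Just inside the size rule lay Ndufb7 (-0.50), Uqcrfs1 (0.52) and Sdha (-0.54), and just outside lay Uqcrb (-0.49), Ndufc2 (-0.48) and Ndufb8 and Cox5b (both -0.46), each by its smaller prefix difference.

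**Figure D4:**
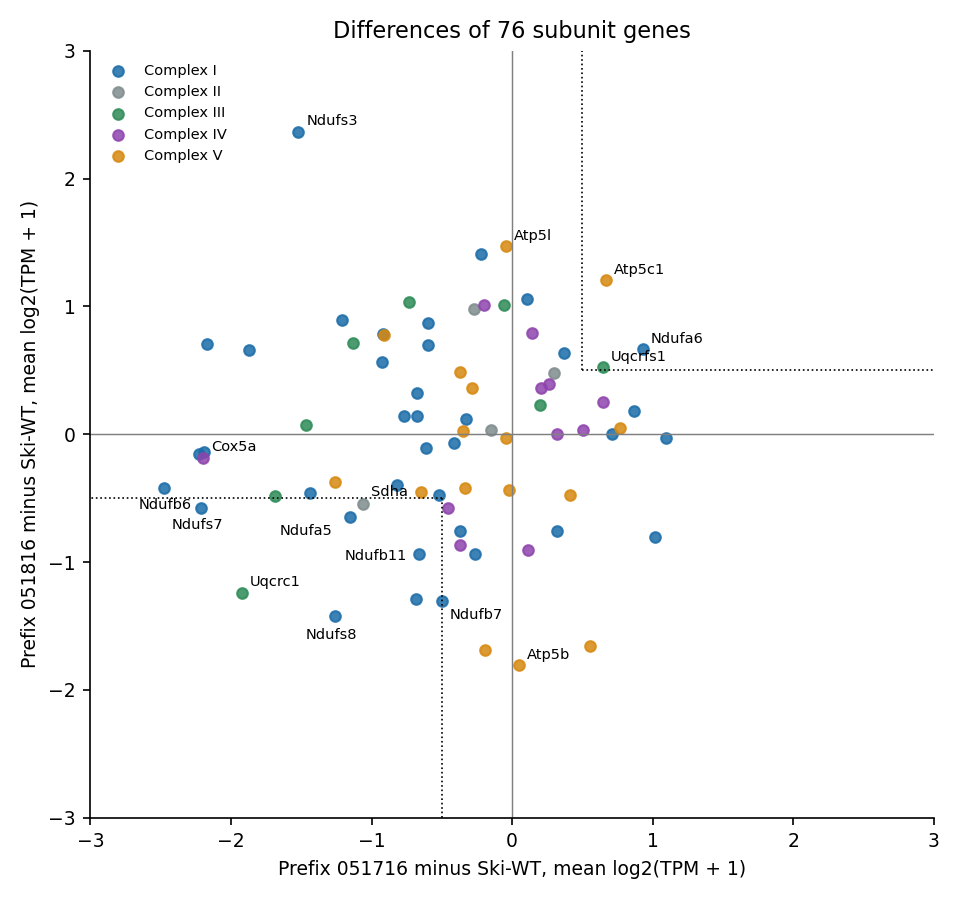
Each point is a subunit gene that passed the filter, at its mean log2(TPM + 1) difference from Ski-WT in prefix 051716 (horizontal) and prefix 051816 (vertical); dotted lines mark the size rule of 0.5. The 8 lower calls sit inside the lower left corner and the 3 higher calls inside the upper right, with Ndufs3 far off at the upper left.

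Uqcrc1, a core protein of complex III, had the lowest difference of the called members. Its lowest, median and highest log2 values were 0, 2.38 and 9.98 in prefix 051716, 0, 5.23 and 10.3 in prefix 051816, and 0, 7.28 and 11.2 in Ski-WT. It reached 5 TPM in 13 of 27 cells (48.1%, exact 95% Clopper-Pearson interval 28.7 to 68.1%), 11 of 19 (57.9%, 33.5 to 79.7%) and 35 of 48 (72.9%, 58.2 to 84.7%), where intervals cover counting error only and overlap. The medians of both Ski-KO prefixes lay below that of Ski-WT, while the ranges overlapped. The difference was -1.64 (-1.92 and -1.24 by prefix), and the mean TPM was 185 in Ski-KO and 383 in Ski-WT, a log2 ratio of -1.05. Uqcrfs1, the Rieske protein of the same complex, differed by 0.59 (0.64 and 0.52), with a median of 0 in each prefix and 11, 8 and 19 cells at 5 TPM. Its shares of cells were close (40.7%, 42.1% and 39.6%), so cells at 5 TPM were about as common in each, and the mean TPM was 110.7 in Ski-KO and 48.4 in Ski-WT.

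Among the core subunits of complex I, 3 of 7 were called lower and none higher, where 17.9% and 3.75% of all genes were. Ndufs8, which binds iron-sulphur clusters, had lowest, median and highest log2 values of 0, 6.38 and 11.7 in prefix 051716, 0, 6.20 and 10.7 in prefix 051816, and 0, 7.48 and 10.9 in Ski-WT. Its difference was -1.33 (-1.26 and -1.42), and it reached 5 TPM in 16, 10 and 36 cells. The mean TPM was 394.5 in Ski-KO and 375.5 in Ski-WT, a log2 ratio of 0.07, so the direction for Ndufs8 turned on the linear scale. The ranges of the 3 prefixes overlapped, and the highest Ndufs8 value was in a Ski-KO cell.

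Ndufs7, next to the quinone site, showed a large gap between the Ski-KO prefixes. Its lowest, median and highest values were 0, 1.21 and 11.3 in prefix 051716, 0, 8.54 and 10.2 in prefix 051816, and 0, 8.22 and 10.4 in Ski-WT, with 12, 12 and 35 cells at 5 TPM. The difference was -1.54 (-2.21 and -0.58), although the median of prefix 051816 was above that of Ski-WT. Over the 7 core genes the per-cell mean differed from that of Ski-WT by -1.23 in prefix 051716 and -0.10 in prefix 051816, and over the 30 accessory genes the differences were -0.54 and 0.04.

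Of the accessory subunits of complex I, Ndufa5 differed by -0.94 (-1.15 and -0.64) with medians of 4.09, 4.79 and 6.51 in prefixes 051716, 051816 and 061016. Its mean TPM was 156.5 in Ski-KO and 160.8 in Ski-WT, a log2 ratio of -0.04, so little difference stood on the linear scale. Ndufb11 and Ndufb7 differed by -0.77 and -0.83. Their medians were 5.45, 4.61 and 5.88 for Ndufb11 and 4.27, 3.92 and 4.72 for Ndufb7, and the values of all prefixes overlapped. In the other direction, Ndufa6 had lowest, median and highest values of 0, 8.35 and 11.1 in prefix 051716, 0, 8.46 and 10.4 in prefix 051816, and 0, 8.11 and 10.7 in Ski-WT. It reached 5 TPM in 23 of 27 (85.2%), 17 of 19 (89.5%) and 39 of 48 cells (81.2%), and its difference was 0.82 (0.93 and 0.67), with a log2 ratio of mean TPM of 0.50.

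Sdha, the catalytic flavoprotein of complex II, had lowest, median and highest values of 0, 0.90 and 10.7 in prefix 051716, 0, 3.11 and 10.3 in prefix 051816, and 0, 5.95 and 10.7 in Ski-WT. Its difference was -0.85 (-1.06 and -0.54), with 12, 10 and 30 cells at 5 TPM. The mean TPM was 199.9 in Ski-KO and 200.3 in Ski-WT, so no difference of mean level stood beside the difference of log means. The other complex II genes differed by 0.38 (Sdhb, 0.30 and 0.48), 0.24 (Sdhc, -0.27 and 0.98) and -0.08 (Sdhd, -0.15 and 0.03).

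Atp5c1 was the called member of complex V. Its lowest, median and highest values were 0, 9.63 and 12.1 in prefix 051716, 0.83, 9.45 and 11.3 in prefix 051816, and 0, 9.38 and 11.5 in Ski-WT. The medians of the 3 prefixes were close and their ranges overlapped, and the difference of means was 0.89 (0.67 and 1.21). It reached 5 TPM in 23 of 27, 18 of 19 and 40 of 48 cells, so cells at or near 0 were fewer in prefix 051816. The 3 c-ring genes differed by -0.02 (Atp5g1), -0.04 (Atp5g2) and -0.57 (Atp5g3). Of the list of 5 head subunits, which holds Atp5c1, 0 were called lower and 1, Atp5c1, higher. None of the 4 peripheral stalk and 3 membrane subunits listed was called. The same rule called 17.9% lower and 3.75% higher over all genes. Counts over so few genes are only a description.

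Other genes of the pathway were taken from lists, and each count of calls stands beside 17.9% lower and 3.75% higher over all genes. Of cytochrome c and cytochrome c1, Cyc1, the electron-carrying partner of Uqcrfs1 in complex III, was called higher, with 99.3 TPM in Ski-KO, 58.9 TPM in Ski-WT and a difference of 0.69 (0.66 and 0.74). Cycs differed by 0.43, with prefixes at -0.76 and 2.12. Of the 3 core genes of complex III listed, 1 was called lower and 1 higher. Of 25 assembly factors that passed the filter, 5 (20%) were called lower, close to the 17.9% of all genes, and none higher. Coa3, a complex IV assembly factor, had the lowest difference, -2.37 (-1.58 and -3.50), with 20 of 46 Ski-KO and 35 of 48 Ski-WT cells at 5 TPM. The others were Ndufaf3 (-1.24), Acad9 (-1.16), Ndufaf1 (-1.11) and Timmdc1 (-0.90), all of them complex I assembly factors. Ndufaf1 and Ndufaf3 were above 0 in 5 of 46 Ski-KO cells each, and in 12 and 15 of 48 Ski-WT cells. Both passed the filter only through Ski-WT, where they are higher, so the filter favoured their lower calls. Atpif1, the inhibitor of the ATP synthase, was called lower among the 7 inhibitor and carrier genes, with a difference of -1.40 (-1.60 and -1.12) and 39 of 46 and 45 of 48 cells at 5 TPM. Slc25a5, the main ADP/ATP carrier here with 2469 TPM, differed by -0.05.

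Of 11 regulators of mitochondrial genes that passed the filter, 1 (9.09%, against 17.9% of all genes) was called lower and none higher: Gabpb1, a subunit of the activator NRF-2, differed by -0.98. Nrf1 differed by -0.64 and Tfam, the mitochondrial DNA packaging factor, by 0.42. Ppargc1a, a co-activator of mitochondrial biogenesis, had 0.24 TPM and reached 5 TPM in 1 cell. Of the 14 tricarboxylic acid cycle genes, Idh3a (-1.73), Suclg2 (-1.43) and Idh3b (-0.55) were called lower and Mdh2 (1.56) and Idh3g (1.22) higher. These are 21.4% and 14.3% of the list, against 17.9% and 3.75% of all genes, and subunits of the same isocitrate dehydrogenase went in both directions.

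Promoters were searched for 8-letter motif cores of 3 factors known to bind oxidative phosphorylation genes, from 250 bases before to 50 after the gene start, on both strands, in RefSeq sequences of GRCm38.p6. Promoters were found for 66 of the 79 members and for 10504 genes of the table. The NRF-1 core (CGCATGCG) was found in 9 members (13.6%) and 4.25% of the table's genes, and the YY1 core (AAGATGGC) in 10 members (15.2%) and 5.26% of the table's genes. The ETS core bound by GABP (CCGGAAGT) was found in 5 members (7.58%) and 8.97% of the table's genes. These cores were chosen after longer forms had been searched, and the shares are a description with no test. NRF-1 matches were in Atp5g2, Atp5j, Atp5k, Atp5l, Cox6a1, Ndufa11, Ndufa8, Uqcr11 and Uqcrc1. YY1 matches were in Atp5f1, Atp5j, Atp5j2, Ndufa3, Ndufa9, Ndufb8, Ndufc1, Ndufs4, Ndufs6 and Ndufs7. GABP matches were in Atp5h, Cox8a, Ndufs3, Uqcr11 and Uqcrh, so Atp5j and Uqcr11 held more than 1 of the cores. The 5 NRF-1 matches with 20 bases on either side and lying before the gene start are shown because the same palindrome stands in genes of 3 complexes, with the core in capitals.
Ndufa11, chr17:56717683-56717730, plus strand: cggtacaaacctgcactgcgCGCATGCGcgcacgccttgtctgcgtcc
Cox6a1, chr5:115349092-115349139, minus strand: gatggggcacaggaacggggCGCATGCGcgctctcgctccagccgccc
Atp5g2, chr15:102671061-102671108, minus strand: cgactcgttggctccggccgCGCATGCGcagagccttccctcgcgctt
Atp5j, chr16:84835096-84835143, minus strand: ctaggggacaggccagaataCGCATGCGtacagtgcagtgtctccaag
Atp5k, chr5:108434421-108434468, minus strand: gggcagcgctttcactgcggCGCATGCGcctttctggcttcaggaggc

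The core starts 59, 161, 41, 147 and 49 bases before the gene start of Ndufa11, Cox6a1, Atp5g2, Atp5j and Atp5k. These genes ranged from 52.3 TPM for Ndufa11 to 1106 TPM for Cox6a1, the lowest member of complex I and a leading member of complex IV. A match describes the sequence and shows no binding.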

How the data were processed

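RNA was measured in single bone marrow cells of mice, isolated by sorting and a Fluidigm C1 device, per the labels' protocols. The submitters' processing notes name Bowtie2, RSEM and mm9 and give neither versions nor roles. The values deposited by the authors are on a log2 scale, log2(TPM + 1), as read from the values: back-transformed, each cell summed to 997625 to 999995 TPM. Such values keep no read depth, so depth is unknown and no interval was computed from reads.

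Groups came from the titles and prefixes from the descriptions of the 94 cells. No cell was left out and no doublet caller was run. A gene passed the filter with values above 0 in 25% or more of either genotype's cells. The detection limit was 5 TPM and the size rule 0.5 in both Ski-KO prefixes. In each complex the 2 highest and 2 lowest members by mean TPM were named, with up to 4 called members per direction, the tissue isoforms and the c-ring genes; other names were chosen after their values were seen. Members and lists were chosen with earlier results of these data known. Alternatives covered pseudocounts, scaling, filters, thresholds and single prefixes. A member that the naming rule takes is not reported here. Scripts were tested on simulated data. RefSeq promoters (GRCm38.p6) and GENCODE M21 transcripts are of another build than mm9 and were matched by symbol. The work used matplotlib 3.10.9, scipy 1.17.1, pandas 2.3.3 and numpy 2.4.6 under Python 3.11.15.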

Additional observations from a re-analysis of the deposited data

How the results depend on the processing

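No paired analysis was possible because cell numbers only name cells and each genotype is 1 sample. Values that moved by more than the SD over the Ski-KO prefixes are given first. The per-cell mean difference moved to 0.11 (complex I), 0.37 (II), 0.32 (IV) and 0.22 (V) as a log2 ratio of summed TPM, to 0.32 (II), 0.22 (IV) and 0.21 (V) with genes above 0 as a covariate, and to 0.085 (IV) and 0.023 (V) with quantile normalization. For complex IV it was also -0.12 and 0.020 with pseudocounts of 0.1 and 10, -0.31 as a median over members, -0.20 without the 25% of cells with fewest genes and -0.12 with Cox7a2l kept, and for complex V -0.25 and -0.044 with those pseudocounts. For complexes I and III that SD exceeds the difference itself (-0.39 and -0.36 as reported), and the difference was -0.0084 and 0.066 with the covariate, -0.16 and -0.18 with quantile normalization, -0.83 and -0.63 as a median over members, -0.23 and -0.20 with a pseudocount of 10, and 0.052 for complex III as a log2 ratio of summed TPM. That SD, 0.38, also exceeds the difference for complex II (-0.08 as reported). There the difference was 0.13 with quantile normalization, 0.0015 with a pseudocount of 10 and -0.26 as a median over members. Over all alternatives the per-cell mean difference ranged from -0.83 to 0.11 (I), -0.45 to 0.37 (II), -0.77 to 0.23 (III), -0.31 to 0.32 (IV) and -0.25 to 0.22 (V). In all, 17 of 63 values had the other sign, with 5 of 12 for complex II.

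Members called lower and higher, 8 and 3 as reported, were 2 and 0 at a threshold of 1 (5.56% and 0.577% of all genes), 2 and 1 with a pseudocount of 10 (8.46% and 1.30%), 4 and 8 with quantile normalization, 2 and 6 after subtracting the median over genes, and 3 and 7 with the covariate. With single prefixes, chosen after seeing the data, they were 34 and 11 (44.7% and 14.5%, against 36.3% and 13.2% of all genes) for 051716 and 18 and 22 (23.7% and 28.9%, against 33.4% and 16.9%) for 051816, since fewer conditions must then be met. The difference of the median share of TPM, 0.31 percentage points, was 0.37 for means and 0.28 for prefix 051816 alone. It was 0.495 after rescaling without ribosomal and the 100 highest genes. That share is of a smaller total, which raises each cell's share by construction, so 0.495 and 0.31 are not directly comparable. Ndufs8 turned to 0.071 as a log2 ratio of mean TPM and 0.26 as a median over cells above 0, and Atp5c1 to -0.27 percentage points as a share of cells above 0. Apart from the single prefixes and the smaller total of the rescaled share, the cause was not tested.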

Other observations

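Prefixes 051716 and 051816, both Ski-KO, differed from each other by at least 1 in mean log2(TPM + 1) for many of the 76 members that passed the filter. Prefix 051816 was higher for 23 (30.3%, against 15.7% of all genes) and lower for 7 (9.21%, against 8.86%). In complex III it was higher for 5 of 8 and lower for none, in complex I higher for 13 of 37 and lower for 3, and in complex V higher for 2 of 16 and lower for 3. Ndufs3, a core subunit of complex I, had the widest gap and is given as a description for that reason. It reached 5 TPM in 6 of 27 cells of prefix 051716 (22.2%, exact 95% Clopper-Pearson interval 8.6 to 42.3%), 13 of 19 of prefix 051816 (68.4%, 43.4 to 87.4%) and 21 of 48 Ski-WT cells (43.8%, 29.5 to 58.8%). The intervals cover counting error only, and they cannot serve as a test because Ndufs3 was picked for its gap. The mean of Ndufs3 differed from Ski-WT by -1.52 and 2.37, while the pooled difference of 0.09 shows none of this. In the other direction, the complex V genes Atp5o, Atp5b and Atp5h were lower than Ski-WT by 1.66, 1.81 and 1.69 in prefix 051816, with differences of 0.55, 0.05 and -0.19 in prefix 051716. These genes were chosen after their values were seen.

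A single cell, of prefix 051716, had none of the 8 complex III members above 0. It had the fewest genes above 0 of its prefix, 2326, and 30 of the other 71 members above 0, and its members still made up 3.67% of its TPM. Of the left-out genes, Cox7a2l, known for its part in joining complexes III and IV, had 490 TPM and differed by -0.95 (-1.73 and 0.15), and Atp5sl had 23.6 TPM and differed by 0.03.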
